A study of Mus musculus with 4 samples.

Results

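Most windows bound by NANOG in mouse embryonic stem cells (ESCs) had another bound window within 100 kb, and 2683 of 16608 did not. Of these, 1777 were isolated unflagged NANOG peaks: windows with NANOG signal of 0.9 RPKM or more in either condition, with none of the 4 deposited flags (an OCT4 site within 1 kb, active promoter, active enhancer, repressed), and with a centre more than 100 kb from the centre of every other bound window on the chromosome. RPKM is the read density of a window corrected for its width and for sequencing depth. The table held 21066 windows of 0.351 kb, and the members made up 15.9% of the 11151 bound unflagged ones. The other 9374 unflagged bound windows lay within 100 kb of a bound window. Because members were chosen by both condition values and by the positions of bound windows, their levels and changes are given as descriptions.

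NANOG ChIP-seq was carried out in ZHBT-O4AID ESCs of strain 129SV, with 2 libraries from uninduced cells and 2 from cells given 500 µM indole-3-acetic acid (IAA, an auxin) for 1.5 h. All 4 libraries shared one genotype: Oct4-/- with a TetOFF Oct4 transgene held silent by doxycycline, plus Oct4AID and Tir1, each driven by the CAG promoter. OCT4 was therefore present only as the degron fusion, which Tir1 directs to degradation when IAA is added. The libraries came from one engineered line grown with PD03, Chiron and LIF, and replicates were separate immunoprecipitations, so p-values measure the spread between these libraries.

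NANOG is a homeodomain transcription factor of the naive pluripotency network, in which it shares many enhancers with OCT4, SOX2, ESRRB and KLF4. OCT4 is a POU factor that reads the octamer and often pairs with SOX2, an HMG-box factor, on adjoining half-sites. ESRRB is an orphan nuclear receptor, and KLF4 is a zinc-finger factor that reads GC-rich words. Enhancers of the network typically carry binding sites for several of these factors, and dense groups of them mark the genes that hold ESC identity.

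The central 151 bases of the 6 isolated peaks with the highest mean signal are shown first, since they are the best measured members. Sequences are 5′ to 3′ from the GRCm38 reference, each peak is named by its nearest protein-coding transcript start, and capitals mark matches on either strand to the NANOG word TAATGG, the SOX words CATTGT and CTTTGT and the ESRRB word CAAGGTCA. The word CTTTGT, an alternative HMG-box core, was added after these sequences had been seen.
Abcc12 peak, chr8:86393972-86394122, forward strand: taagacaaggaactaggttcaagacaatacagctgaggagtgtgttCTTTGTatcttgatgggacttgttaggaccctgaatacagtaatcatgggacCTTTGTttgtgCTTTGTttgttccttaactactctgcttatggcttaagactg
Lrig3 peak, chr10:125940440-125940590, forward strand: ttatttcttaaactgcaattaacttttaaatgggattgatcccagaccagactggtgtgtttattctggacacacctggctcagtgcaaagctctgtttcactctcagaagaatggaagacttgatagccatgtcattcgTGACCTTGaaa
Huwe1 peak, chrX:151793003-151793153, forward strand: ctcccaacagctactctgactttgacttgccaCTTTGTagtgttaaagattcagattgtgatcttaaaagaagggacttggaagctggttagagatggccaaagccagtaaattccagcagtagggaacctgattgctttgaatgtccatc
Cct8 peak, chr16:87501766-87501916, forward strand: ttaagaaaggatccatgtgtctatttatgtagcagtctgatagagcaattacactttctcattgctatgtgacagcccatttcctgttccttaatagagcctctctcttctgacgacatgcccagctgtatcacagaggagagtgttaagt
Slc35b3 peak, chr13:39524026-39524176, forward strand: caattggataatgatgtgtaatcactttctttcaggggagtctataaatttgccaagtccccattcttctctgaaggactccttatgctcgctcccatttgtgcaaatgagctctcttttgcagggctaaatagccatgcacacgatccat
Myo1h peak, chr5:114299742-114299892, forward strand: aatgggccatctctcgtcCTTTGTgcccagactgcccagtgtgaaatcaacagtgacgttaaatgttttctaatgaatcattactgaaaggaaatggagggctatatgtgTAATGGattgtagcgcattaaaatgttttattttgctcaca

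The Abcc12 peak held 3 copies of CTTTGT in this stretch, the Myo1h peak 1 copy and 1 TAATGG, the Huwe1 peak 1 CTTTGT and the Lrig3 peak 1 ESRRB word. The central stretches of the Cct8 and Slc35b3 peaks held none of the 4 words. The next sequences are those of the 2 largest rises with IAA and of the single isolated peak called lower, with the same marking.
Rbbp6 peak, chr7:122932267-122932417, forward strand: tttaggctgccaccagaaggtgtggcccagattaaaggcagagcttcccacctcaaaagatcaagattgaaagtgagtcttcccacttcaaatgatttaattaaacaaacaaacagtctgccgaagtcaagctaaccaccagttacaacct
Pcbp3 peak, chr10:76831296-76831446, forward strand: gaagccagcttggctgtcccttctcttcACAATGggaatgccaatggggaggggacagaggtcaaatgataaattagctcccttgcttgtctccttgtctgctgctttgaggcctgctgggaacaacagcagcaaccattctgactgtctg
Brinp2 peak, chr1:158215804-158215954, forward strand: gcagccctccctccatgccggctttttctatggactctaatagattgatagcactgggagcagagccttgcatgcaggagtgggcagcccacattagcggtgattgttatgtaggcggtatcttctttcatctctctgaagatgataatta

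Of these, the Pcbp3 peak held 1 SOX word, and the others held none of the marked words in the central 151 bases. Over the whole windows, matches to TAATGG were found in 417 isolated windows (23.5%), against 21.7% of the other unflagged windows, 19.2% of all windows and 14.4% of windows of the same length placed 2 kb to either side of the isolated peaks. The SOX word CATTGT was found in 39.7% of isolated windows, and in 37.1% of those without the recurrent element described below. It was found in 36.6% of the other unflagged windows, 33.2% of all windows and 20.8% of the shifted ones. For CTTTGT the shares were 46.5% of isolated, 49.3% of other unflagged, 43.9% of all and 30.1% of shifted windows, with 54.5% of OCT4 co-bound windows. The ESRRB word stood out most from its surroundings: 186 isolated windows (10.5%) held it against 2.14% of shifted windows, a ratio of 4.89, with 9.42% among the other unflagged windows and 8.29% among all windows.

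Words of other factors differed in how far they exceeded their surroundings. The KLF word GGGNGTGG was found in 13.7% of isolated windows and 8.36% of shifted windows, the TEAD word GGAATG in 25.8% and 19.2%, and the STAT3 word TTCCNGGAA in 1.29% and 0.872%. The GATA word AGATAA (22.1% and 21.8%) and the AP-1 word TGANTCA (9.45% and 9.48%) had almost the same share in both. The CTCF core was found in 9 isolated windows (0.506%, against 0.535% of shifted windows). In all windows these shares were 14.2% for KLF, 25.4% for TEAD, 1.35% for STAT3, 18.5% for GATA, 9.22% for AP-1 and 0.622% for CTCF.

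The octamer ATGCAAAT was found in 29 isolated windows (1.63%), against 1.24% of the other unflagged windows, 2.25% of shifted windows, 3.71% of all windows and 7.84% of OCT4 co-bound windows. The composite of a SOX word followed by the octamer core was found in 0 isolated windows and in 3 of 3930 co-bound windows. This pattern took only exact CATTGT as the SOX word, and was too rare even in co-bound windows to tell the classes apart. Windows with an OCT4 site within 1 kb are absent from the members by rule. By position, within 25 bp of the centre there were 2.499 matches per kb to CATTGT, 2.55 to CTTTGT, 1.09 to TAATGG and 0.293 to the ESRRB word. Between 275 and 475 bp from the centre the densities were 0.629, 1.03, 0.404 and 0.0647 matches per kb, so the central excess ranged from 2.48 to 4.52 times. The recurrent element described below can hold CATTGT near the centre, and its part in the CATTGT density was not separated. The octamer had 0.0563 matches per kb at the centre and 0.0675 outside. The KLF word was at 0.259 in the central bin and 0.356 outside, but reached 0.484 to 0.619 in the pair of bins on either side of it.

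**Figure D1:**
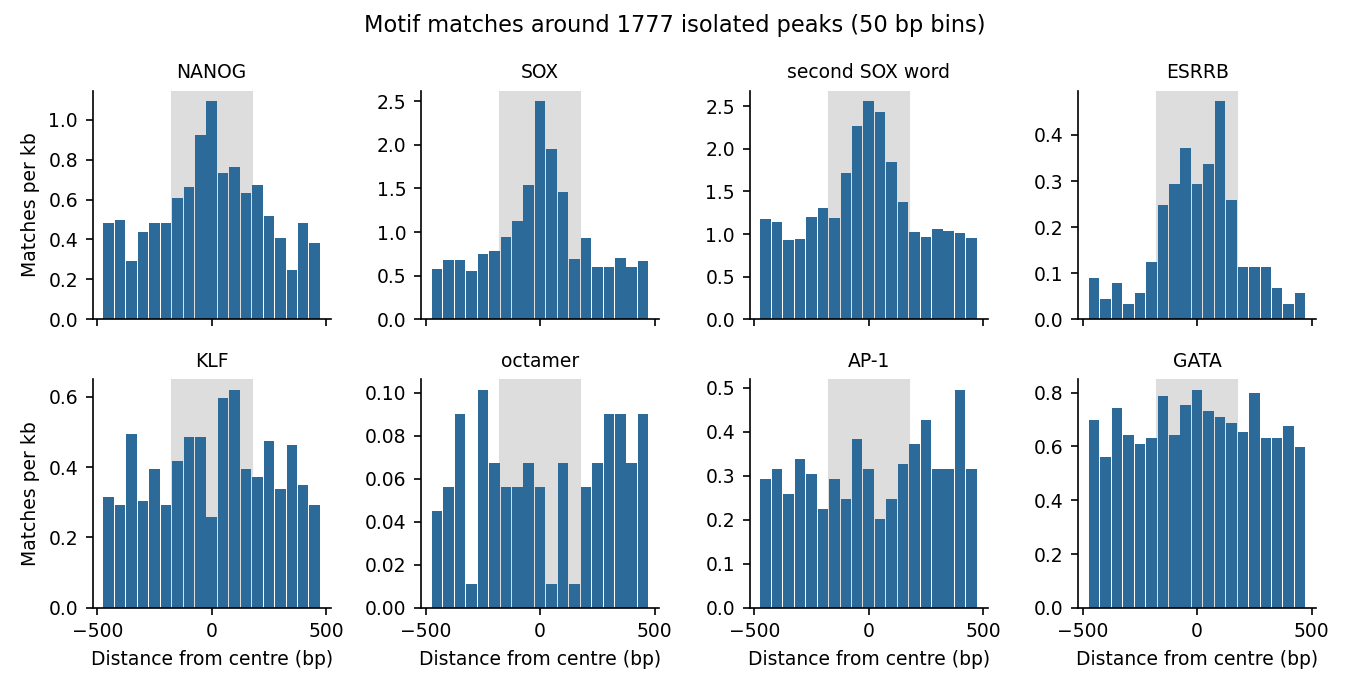
Matches per kb to 8 words in 50 bp bins of distance from the centre of the 1777 isolated peaks (x axis in bp, each panel with its own y axis starting at 0), with the extent of the window shaded. The second SOX word is CTTTGT. NANOG and both SOX words peak in the central bin, at 1.09, 2.499 and 2.55 matches per kb. ESRRB is raised across the window, with 0.293 in the central bin and its highest value, 0.473, in the bin at 100 bp. The octamer, AP-1 and GATA words show no such rise.

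A recurrent sequence was noticed among the isolated windows after their sequences had been seen. It holds the words AGGCCATT and GGTGTAAC in that order within 60 bases, and it was present in 78 isolated windows (4.39%), 120 other unflagged windows (1.28%) and 14 OCT4 co-bound windows (0.356%). The 4 strongest isolated copies are printed on the strand of the element, with 60 flanking bases and the words in capitals, to show how alike separate peaks can be.
Olfr352 peak, chr2:36878334-36878494, reverse strand: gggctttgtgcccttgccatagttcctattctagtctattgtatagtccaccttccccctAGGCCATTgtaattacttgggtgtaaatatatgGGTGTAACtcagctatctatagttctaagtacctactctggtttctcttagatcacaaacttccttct
2310009B15Rik peak, chr1:138859351-138859503, forward strand: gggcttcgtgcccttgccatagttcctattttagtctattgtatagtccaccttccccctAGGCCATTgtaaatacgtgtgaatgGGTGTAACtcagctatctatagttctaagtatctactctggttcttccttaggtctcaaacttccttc
Msr1 peak, chr8:39813508-39813660, reverse strand: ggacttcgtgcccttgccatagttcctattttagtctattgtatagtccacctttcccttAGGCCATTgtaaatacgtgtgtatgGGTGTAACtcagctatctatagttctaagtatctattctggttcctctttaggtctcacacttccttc
Kif20b peak, chr19:35490964-35491116, reverse strand: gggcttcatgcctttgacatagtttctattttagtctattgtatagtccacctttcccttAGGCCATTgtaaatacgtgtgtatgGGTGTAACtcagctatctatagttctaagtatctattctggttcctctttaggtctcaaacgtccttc

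The 3 copies of 153 bases were identical at 142 to 146 positions in pairwise comparison (92.8% to 95.4%). The reference held 1061 copies of the paired words on the 21 chromosomes with windows, and 606 of them (57.1%) lay inside a window although windows covered 0.271% of the bases. Bound windows held 352 copies (33.2% of all), sub-threshold windows 254, and 148 of the 352 bound windows carried the repressed flag. In the 78 isolated windows the midpoint of the pair lay a median of 37 bp from the window centre, and within 100 bp of it in 63. These windows were soft-masked as repeats over a median of 95.01% of their bases, and 75 of them held CATTGT, which the first word can overlap. Of the 78, 64 were intergenic and 14 intronic.

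NANOG signal at the element copies was weak. On the log2(RPKM + 0.1) scale the median level was -0.34 and 0.65 in the first and second uninduced libraries and 0.99 and 1.14 in the first and second IAA libraries, against 0.87, 1.34, 1.90 and 1.92 in the isolated windows without it. The copies were thus lower in every library, by 0.70 to 1.21. The strongest, the Olfr352 peak between olfactory receptor genes, measured 3.80 and 5.61 RPKM in uninduced cells and 7.98 and 7.38 RPKM with IAA. A median of 58.3% of the 31-base words of these windows was also found in another window. Reads no longer than such a word could be placed at more than one copy, and read length was not taken into account. The part of read placement in their level was not tested.

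By place, 851 isolated windows (47.9%) were intergenic and 835 (47.0%) intronic in the GENCODE annotation, against 37.8% and 55.5% of the other unflagged windows. Coding exons held 27, UTRs 33 and noncoding exons 31. The median distance to the nearest transcript start of any kind was 12875 bp, against 9236 bp for the other unflagged windows, and to the nearest protein-coding start 32332 bp against 17242 bp. For 544 isolated windows (30.6%) no protein-coding start lay within 100 kb, against 12.7% of the others. The nearest OCT4 co-bound window was a median of 368740 bp away, against 116191 bp, a distance to which the isolation rule itself contributes. Median GC content was 45.6%, against 46.4% for the other unflagged windows.

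Isolation was most frequent on the X chromosome, where bound windows were sparse. There, 70 of 245 bound windows were isolated members (28.6%) and bound windows numbered 1.43 per Mb, whereas the autosomes had 7.55% to 12.8% and 5.30 to 9.22 per Mb. Chromosome Y had 5 members among 21 bound windows. In 386 isolated windows (21.7%) a window below 0.9 RPKM lay within 100 kb, so 1391 were also alone when weak windows were counted. Repeats were more common than in the other unflagged windows: 390 isolated windows (21.9%) were soft-masked over more than 50% of their bases, against 11.9% of the other unflagged windows, and 502 (28.2%) shared at least one 31-base word with another window, against 17.2%.

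NANOG signal at isolated peaks was low in all 4 libraries and higher in both IAA libraries than in both uninduced ones. The median read number per window was 5 and 10 without IAA (replicates 1 and 2) and 25 and 7 with it (replicates 1 and 2). The libraries held 8236968, 11674801, 19634763 and 5406307 reads in that order, and the lowest value in each was worth 1 read (0.346, 0.244, 0.145 and 0.527 RPKM), which may also stand for 0 reads. In RPKM, the medians were 1.73 and 2.44 without IAA and 3.63 and 3.69 with it. On the log2 scale the uninduced medians were 0.87 and 1.34 (mean 1.11 ± 0.33, SD, n = 2) and the IAA medians 1.90 and 1.92 (mean 1.91 ± 0.017, SD, n = 2). The uninduced libraries differed from each other far more than the IAA libraries did. Isolated windows took a share of each library's reads of 0.134% and 0.187% without IAA and 0.276% and 0.294% with it.

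Compared with the other unflagged windows, isolated windows were weaker in each library. The difference in median log2 level was -0.25 and -0.13 in the uninduced libraries and -0.11 and -0.19 in the IAA libraries. In reads these medians were 5 against 6, 10 against 11, 25 against 27 and 7 against 8, so each difference amounted to 1 or 2 reads. For the mean over libraries the difference was -0.12, with an SD of 0.071 between replicates. By this mean, the 390 isolated windows soft-masked over more than 50% of their bases had a median level of 0.74. The 1031 with fewer masked bases had 1.57 and the 356 with none 1.55, against 1.58 in all other unflagged windows. The other unflagged windows were not split by masking, and the part of repeats in the difference was not tested. OCT4 co-bound windows were stronger than isolated ones, by 0.81 and 0.82 in uninduced cells and by 0.21 and 0.35 with IAA.

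**Figure D2:**
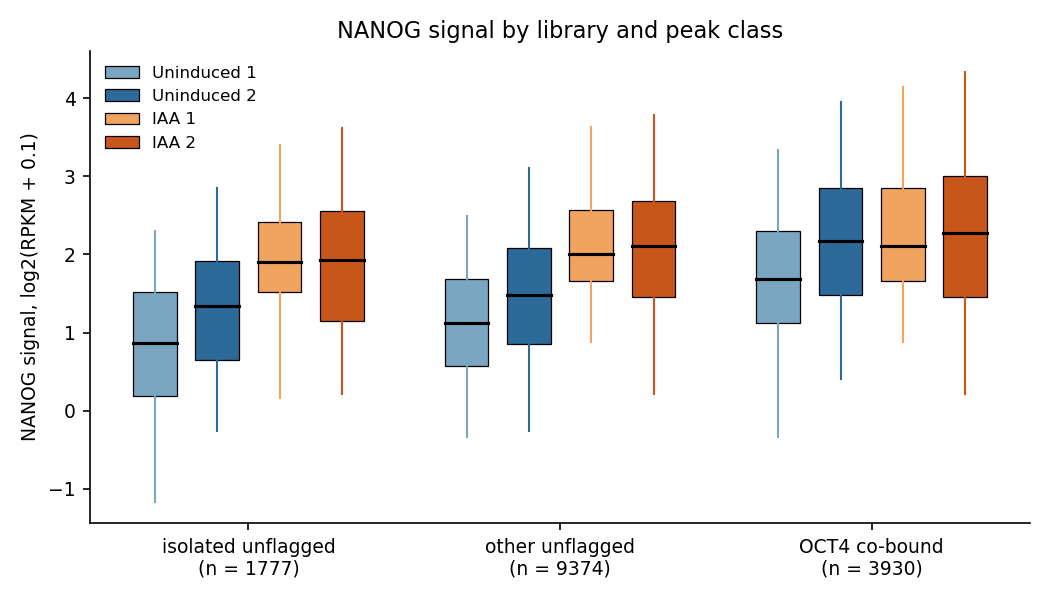
NANOG signal, log2(RPKM + 0.1), in each library for isolated unflagged (n = 1777), other unflagged (n = 9374) and OCT4 co-bound windows (n = 3930). Boxes span the quartiles with the median as a line, and whiskers reach the 5% and 95% quantiles. Isolated medians run from 0.87 to 1.92 and lie below those of the other classes in every library.

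The condition values of isolated windows were higher with IAA by a median log2 change of 0.81, and 89.0% of isolated windows had a higher IAA value. The quartiles of the change were 0.41 and 1.20. In the 4 pairs of an IAA and an uninduced library the median change was 1.04 and 1.09 against the first uninduced library and 0.59 and 0.63 against the second. All 4 pairs were positive, and the choice of the uninduced library moved the value more than the choice of the IAA library. The medians between replicates of a condition differed by 0.47 for the uninduced pair and 0.073 for the IAA pair.

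The change of isolated windows was close to that of the other unflagged windows. The latter had a median change of 0.83, a difference of -0.02 with an SD of 0.022 between replicates. In the 4 pairs the difference ran from -0.05 to 0.00. OCT4 co-bound windows had a median change of 0.36, which was 0.45 below the isolated windows, with an SD of 0.040 and a range over the pairs of 0.42 to 0.49. Over all bound windows the median change was 0.72, and quantile normalization, which gives the 4 libraries one distribution, moved it to 0.04. Relative to all bound windows, isolated windows were 0.09 higher under library-size scaling and 0.08 higher after quantile normalization, and the co-bound windows were 0.36 and 0.35 lower.

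Among isolated windows, the level was lower at greater distances from other bound windows while the median change stayed within 0.81 to 0.86. Isolated windows 100 to 200 kb from another bound window (n = 1117) had medians of 1.12 and 1.34 in the uninduced libraries and 1.95 and 1.92 in the IAA libraries. Those 200 to 500 kb away (n = 534) had 0.87, 1.20, 1.78 and 1.92, and those more than 500 kb away (n = 126) had 0.72, 1.04, 1.62 and 1.71. Every library was lower in the farthest group than in the nearest. The median change in the 3 groups was 0.81, 0.81 and 0.86. Nearer than 100 kb, the median level of unflagged windows over the 4 libraries was 1.50 in the small band up to 1 kb (n = 336). It was 1.65 at 1 to 10 kb, 1.596 at 10 to 30 kb and 1.52 at 30 to 100 kb, against 1.53 at 100 to 200 kb. From 1 kb outward, a lower level at greater distance was thus also seen among windows that were not isolated. Across isolated windows, Spearman's rho with distance was -0.15 for the level and -0.00015 for the change (n = 1777 windows of the same 4 libraries). The farthest group was also the most repetitive, with the element in 22 of its 126 windows and a median of 39.9% soft-masked bases against 11.97% in the nearest, and the part of repeats in its level was not tested.

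**Figure D3:**
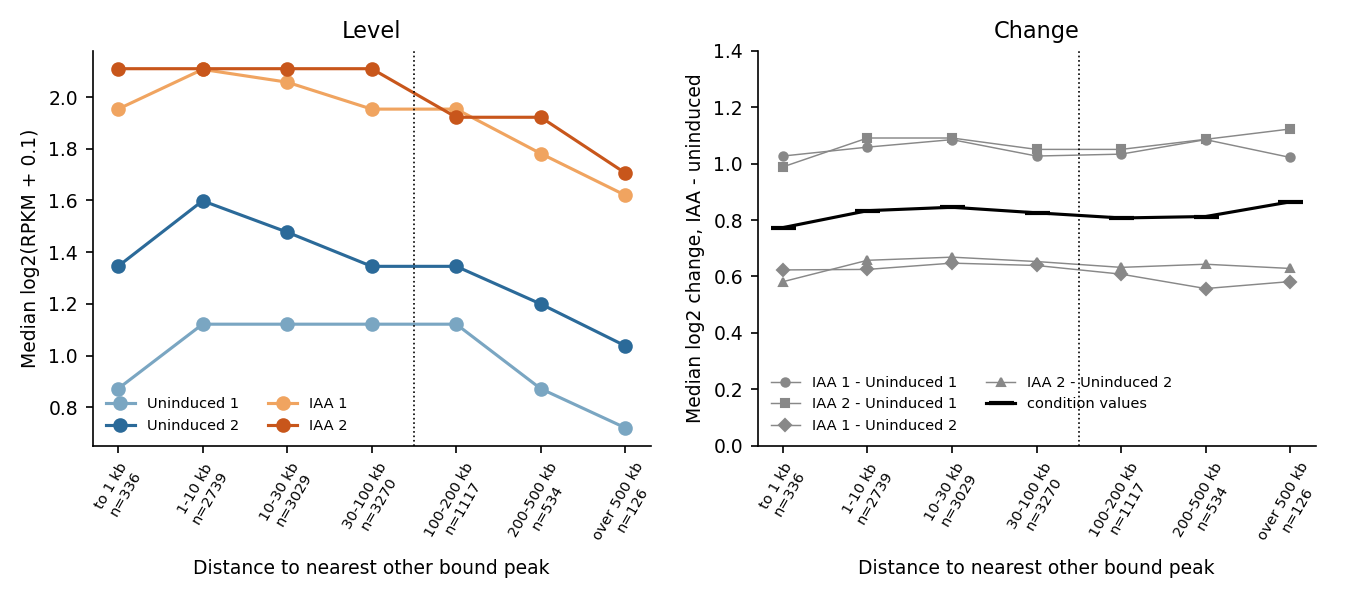
Median level (left, log2(RPKM + 0.1), one line per library) and median log2 change (right, grey for the 4 pairs of libraries, black for condition values) of unflagged windows by distance to the nearest other bound window. Bands to the right of the dotted line are isolated. The level is lower in the farthest band than in the 100 to 200 kb band in all 4 libraries. The change by condition values lies between 0.77 and 0.86 in every band, and the pairs of libraries spread more widely.

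Within the isolated class the change differed with some of the words a window held, with base composition and with repeat content. Windows with the ESRRB word had a median change of 0.94 and those without it 0.80, a difference of 0.14 with an SD of 0.021 between replicates and a range of 0.06 to 0.19 over the 4 pairs. Their uninduced medians were equal, at 0.87 and 1.34, and their IAA medians were 2.01 and 2.11 against 1.84 and 1.92. In reads these were 5 and 10 in both groups, then 27 and 8 against 24 and 7, so the equality is a tie of whole reads. The median uninduced condition value was 2.25 RPKM with the word and 2.14 RPKM without it, and with IAA 4.15 and 3.65 RPKM. The IAA value was the higher one in 96.8% of windows with the word and in 88.1% of those without. In the other unflagged windows, which are separate windows of the same libraries, the same split gave 0.10 (0.09 to 0.16 over the pairs). Windows with CTTTGT were 0.08 above those without it (0.08 to 0.13 over the pairs), and 0.05 above in the other unflagged windows (0.01 to 0.09). Windows with the AP-1 word were also 0.08 above those without it (0.04 to 0.12 over the pairs). In the other unflagged windows the AP-1 split gave only 0.01 by condition values (0.03 to 0.07 over the pairs). The 23 windows with the STAT3 word were 0.21 below the rest, with an SD of 0.13, but only 0.02 below in the other unflagged windows. The 29 windows with the octamer had a median change of 0.69, or 0.12 below the rest, with an SD of 0.10. In the other unflagged windows the octamer split gave 0.19 below.

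In 4 groups by quartile of GC content, from the lowest, the median change was 0.72, 0.85, 0.88 and 0.80. In 4 groups by quartile of the level it was 0.80, 0.83, 0.70 and 0.89, with no steady order in either. The other words gave smaller differences: TAATGG 0.02, CATTGT 0.03, the KLF word -0.03, the TEAD word -0.04 and the GATA word -0.01. In the other unflagged windows the TEAD split gave -0.09, and the rest of these words -0.04 to 0.01. Intergenic and intronic windows both had a median change of 0.81, and the 91 windows in exons or UTRs had 0.85. Windows soft-masked over more than 50% of their bases had a change of 0.76 against 0.85 for the 356 windows with no masked base, and a level lower by 0.70 to 0.97 in each library. In the 47 windows masked over all of their bases the change was 0.49. The 78 element windows had a change of 0.83 against 0.81 without the element. These splits were compared after earlier results of the data were known, and no test was made on them.

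**Figure D4:**
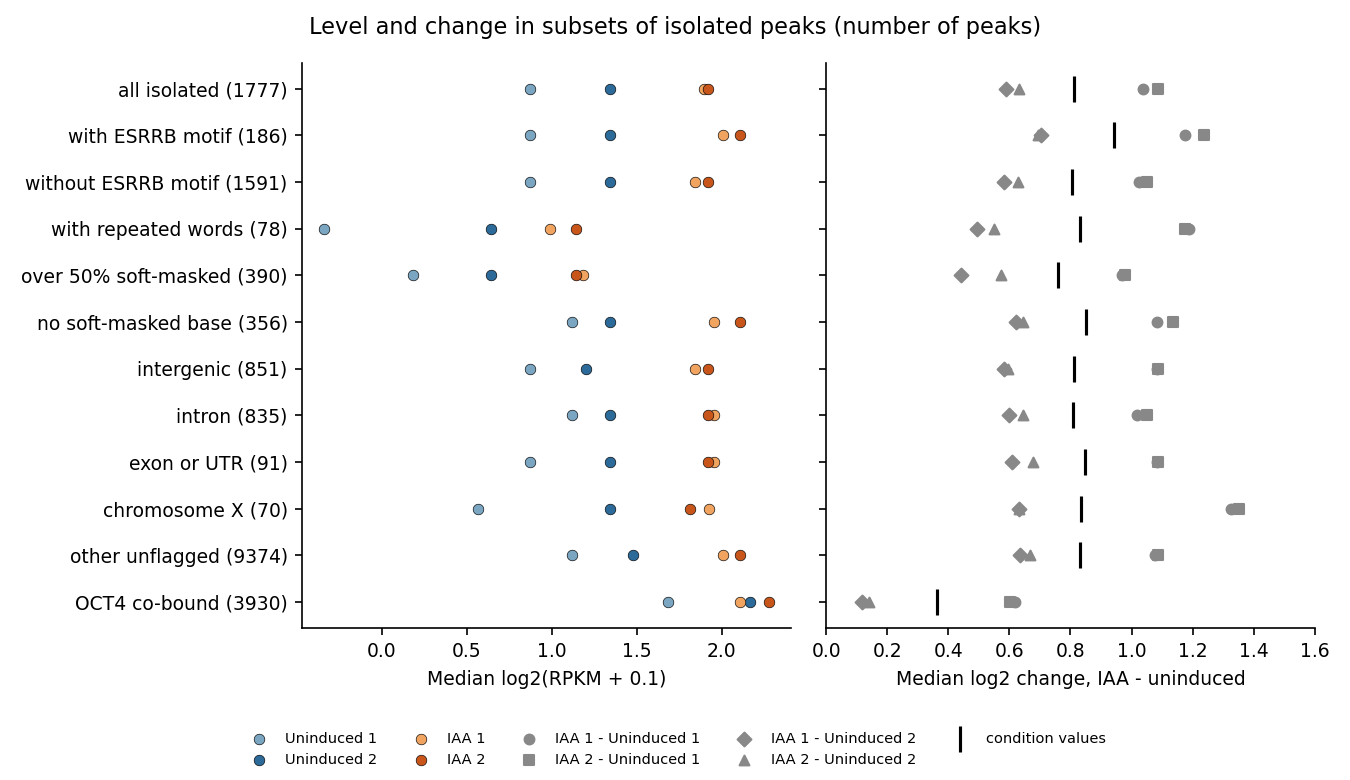
Median level in each library (left) and median log2 change (right, grey symbols for the 4 pairs, black bars for condition values) in subsets of isolated windows and in 2 other classes, with the number of windows in brackets. Windows with repeated words, the paired words of the recurrent element, have the lowest level in the first uninduced library, and windows with the ESRRB word have the largest change by condition values, 0.94.

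In limma fitted over all 16608 bound windows (two-sided, Benjamini-Hochberg), 278 of the 1777 isolated windows were called higher with IAA at an adjusted p under 0.05 (15.6%) and 1 was called lower (0.0563%). Over all bound windows the shares called were 15.0% higher and 0.337% lower, so the isolated share of higher calls was close to the background, and since the rule used these values nothing is read from either count. At an unadjusted p under 0.05 there were 624 higher and 5 lower isolated windows, given without a count over all bound windows. Both IAA values lay above both uninduced values in 1129 isolated windows (63.5%, against 60.5% of bound windows) and below both in 48 (2.70%, against 4.23%). The count depended on the fit and the libraries. It was 21 with eBayes without a trend and 0 after quantile normalization. It was 0 when either IAA library was left out, 183 when the first uninduced library was left out and 739 when the second was, fits in which one condition has a single library and the spread comes from the other condition alone. At an unadjusted p under 0.05 leaving out IAA replicate 1, IAA replicate 2, the first uninduced library or the second gave 276, 155, 451 and 878 windows higher.

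Of the members, 1591 reached 0.9 RPKM in both conditions, 139 only with IAA and 47 only without it. In the first group 253 windows were called higher (15.9%, against 15.0% of all bound windows) and 1 lower (0.063%, against 0.337%), so the higher share was near the background. The 139 had a median change of 1.27 and the 47 one of -0.66, directions that the threshold fixes. These windows were mostly repetitive, with medians of 77.8% and 88.6% soft-masked bases.

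The strongest isolated peak, at chr8:86393872-86394222, lay in an intergenic region 141 kb from the start of Abcc12, which encodes an ABC transporter. It measured 13.8 and 25.9 RPKM in the 2 uninduced libraries, and 29.7 and 47.4 RPKM in the 2 IAA libraries, in replicate order as for every peak here. Both IAA values were above both uninduced values, yet the limma log2 change of 0.99 (SE 0.47) did not pass (adjusted p = 0.125). The Lrig3 peak, 25.7 kb from the start of a gene for a leucine-rich repeat membrane protein, measured 7.26 and 22.9 RPKM without IAA and 28.6 and 36.4 RPKM with it. It was called higher, at 1.31 on the log2 scale (SE 0.45, limma, adjusted p = 0.0338), and its uninduced values differed by more than its IAA values did.

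The other four of the strongest peaks had means between 14.5 and 18.5 RPKM in uninduced cells and between 27.6 and 29.8 RPKM with IAA, and none passed the test. The Huwe1 peak on chromosome X, 7.73 kb from the start of a ubiquitin ligase gene, measured 16.3 and 18.8 RPKM and then 24.4 and 35.3 RPKM. The Cct8 peak, in an intron of the noncoding gene B130034C11Rik and near a chaperonin subunit gene, measured 15.2 and 21.7 RPKM and then 25.5 and 30.6 RPKM. In both, the groups did not overlap and the gap between them was smaller than the spread of one condition. The Slc35b3 peak measured 13.1 and 19.5 RPKM and then 26.1 and 29.0 RPKM, and lay 563 kb from that sulphate-donor transporter gene. The Myo1h peak, in an intron of an unconventional myosin gene, measured 10.4 and 18.5 RPKM and then 25.1 and 30.6 RPKM. All 6 had higher values in both IAA libraries.

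The 4 largest rises were weak peaks with almost no reads in uninduced replicate 1. The intergenic Rbbp6 peak, at chr7:122932167-122932517 and 33.3 kb from a gene for a retinoblastoma-binding ubiquitin ligase, measured 0.346 and 2.68 RPKM without IAA (1 and 11 reads) and 7.84 and 8.96 RPKM with it (54 and 17 reads). Its log2 change was 2.93 (SE 0.52, limma adjusted p = 4.9e-05). The Pcbp3 peak, at chr10:76831196-76831546 in an intron of a gene for a poly(C)-binding protein, measured 0.692 and 2.44 RPKM and then 8.13 and 10.01 RPKM, a change of 2.69 (SE 0.49, limma adjusted p = 6.7e-05). In both, the uninduced libraries differed by a larger ratio than the IAA libraries.

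The other rises were a peak at chr12:19668596-19668946, with 0.346 and 1.95 RPKM and then 4.79 and 7.38 RPKM, and one in an intron of Tbc1d16, a Rab GTPase-activating protein gene, with 0.346 and 2.44 RPKM and then 6.38 and 5.80 RPKM. Their log2 changes were 2.66 and 2.54 (SE 0.58 and 0.56, limma adjusted p = 0.00113 and 0.00149). The first is 88.9% soft-masked and shares 37.7% of its 31-base words with other windows. Where uninduced replicate 1 is at 1 read, the size of the change depends on the pseudocount of 0.1 RPKM.

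Only 1 of the 4 largest falls passed the test. The Brinp2 peak, at chr1:158215704-158216054 and 80.6 kb from the start of a gene expressed in neurons, measured 4.50 and 5.86 RPKM in uninduced cells and 3.19 and 1.05 RPKM with IAA. Its log2 change was -1.42 (SE 0.51, limma adjusted p = 0.0426), and IAA replicate 2 had 2 reads there. The call was lost without either IAA library, without the second uninduced library, with the replicate block, in the fit over all windows, with eBayes without a trend, after quantile normalization and in voom. A peak on chromosome 18 near Nrep measured 4.50 and 4.39 RPKM and then 2.32 and 1.05 RPKM (adjusted p = 0.0513, limma). A peak 43.5 kb from Cxcl13, a B cell chemokine gene, measured 5.19 and 4.88 RPKM and then 2.03 and 2.11 RPKM, with a log2 difference of -1.24 (SE 0.51, adjusted p = 0.0709, limma). Its IAA replicates were the closest of the 4. The fourth, in the noncoding gene Snhg14, had 1 read in IAA replicate 2 and an adjusted p of 0.186 in limma.

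**Figure D5:**
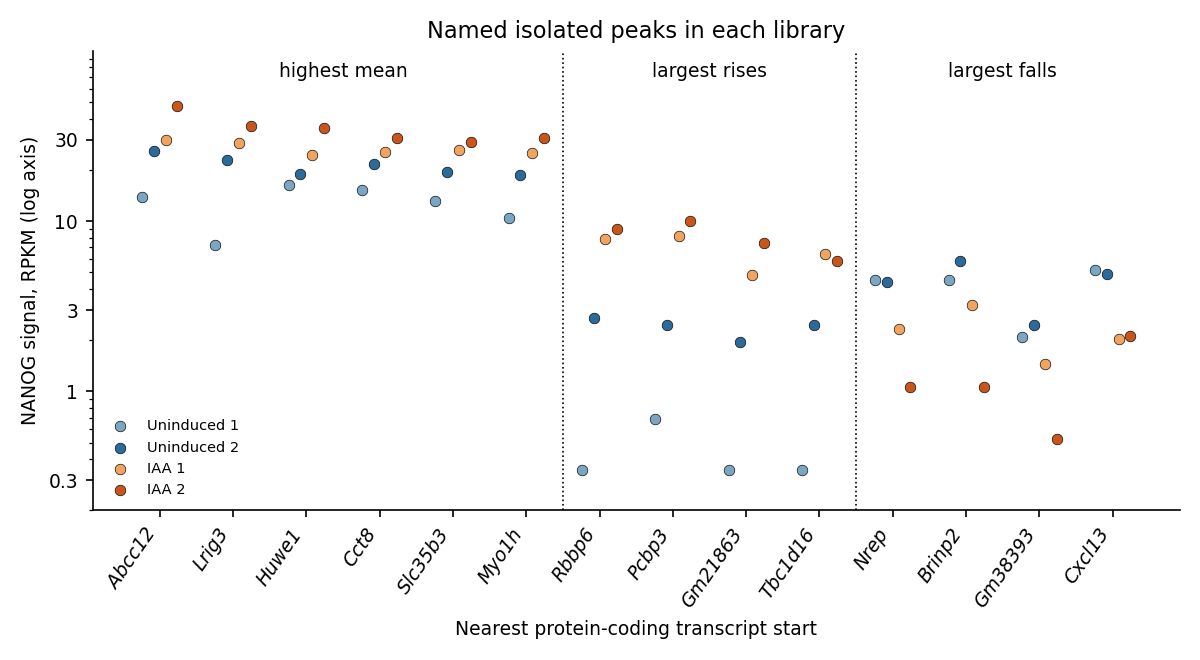
NANOG signal in RPKM (log axis) in each library for the 6 isolated peaks with the highest mean, the 4 largest rises and the 4 largest falls, named by the nearest protein-coding transcript start. Each dot is one library. Strongest peaks lie between 7.26 and 47.4 RPKM, and 3 of the 4 rises sit at 0.346 RPKM, the value of 1 read, in uninduced replicate 1.

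Of the 4 peaks farthest from any other bound window, 3 were weak and repetitive. They lay on chromosomes Y, 14 and X, at 4570 kb, 3446 kb and 2175 kb from the next bound window, had mean signals of 1.08, 0.712 and 0.885 RPKM without IAA, and were soft-masked over 97.2%, 92.9% and all of their bases. The exception was chrX:112370760-112371110, in an intron of Apool, a gene for a protein of the mitochondrial inner membrane. At 2584 kb from the next bound window it measured 17.6 and 18.3 RPKM in uninduced cells and 13.6 and 12.6 RPKM with IAA. Both IAA values were lower and the replicates were close, but the log2 change of -0.45 (SE 0.44) did not pass in limma (adjusted p = 0.454).

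Genes of the pluripotency network were rare as neighbours of isolated peaks. By the nearest transcript start of any kind, 0 isolated windows belonged to the 56 listed network genes. Such genes were nearest to 42 of the other unflagged windows (0.448%) and 118 of all bound windows (0.71%). By protein-coding starts only, the counts were 7 (0.394%), 118 (1.26%) and 263 (1.58%). The rule leaves out flagged windows and windows near another bound one, so it can itself lower the isolated counts. Of the 7, 2 were called higher in limma, where 15.0% of all bound windows were. Both lay near Klf4, a core factor of naive pluripotency. The nearer, at chr4:55618905-55619255 and 86.6 kb from its start, measured 4.84 and 6.83 RPKM without IAA and 10.6 and 15.3 RPKM with it, a difference of 1.13 on the log2 scale (SE 0.42, adjusted p = 0.0493, limma). The farther, 473 kb away, measured 1.73 and 4.88 RPKM and then 9.58 and 9.49 RPKM, a change of 1.67 (SE 0.44, adjusted p = 0.00704, limma). The third strongest, 213 kb from Tet2, which encodes a 5-methylcytosine oxidase, measured 5.19 and 6.59 RPKM and then 5.95 and 3.69 RPKM, so that its groups overlapped.

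Lineage regulators, the factors and signals that mark exit from pluripotency, had 1 isolated window by any start and 7 by protein-coding starts (0.394%, against 0.405% of the other unflagged windows). The one by any start lay in an intron of Fgf5, a marker of the primed epiblast, 1.51 kb from its start. It measured 3.46 and 3.90 RPKM without IAA and 6.53 and 4.22 RPKM with it, a log2 change of 0.50 (SE 0.46) that did not pass. A peak 76.6 kb from Foxa2, an endoderm factor, measured 2.77 and 3.42 RPKM and then 6.82 and 7.90 RPKM and was the 1 of the 7 called higher, against 15.0% of all bound windows (log2 change 1.23, SE 0.45, adjusted p = 0.0466, limma). A peak 21.9 kb from Mesp1, a mesoderm factor, measured 3.46 and 4.39 RPKM and then 2.61 and 3.69 RPKM.

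Neuronal adhesion and synapse genes, many of them very long, were the most frequent of the 4 lists by protein-coding starts but came after chemoreceptor genes by starts of any kind. The lists differ in size: 108 neuronal, 56 network and 40 lineage genes, and chemoreceptors taken by 5 name prefixes. These ranks are therefore of counts alone. Neuronal list genes were nearest to 20 isolated windows by any start (1.13%, against 0.352% of the others and 0.494% of all bound windows). By protein-coding starts they were nearest to 71 (3.995%, against 0.907% and 1.71%), spread over 49 genes. Of the 71, 8 were called higher in limma, where 15.0% of all bound windows were. The median change of the 71 was 0.81, as it was over all isolated windows, against 0.72 over all bound windows. The strongest by any start lay in an intron of Rbfox1, a neuronal splicing factor gene, and measured 3.11 and 6.10 RPKM and then 10.4 and 13.7 RPKM (log2 change 1.43, SE 0.43, adjusted p = 0.0152, limma). By protein-coding starts the strongest was in an intron of Epha3, an ephrin receptor gene, at 4.84 and 11.2 RPKM and then 12.8 and 20.03 RPKM. The next was near Slitrk6, a synaptic adhesion gene, at 4.84 and 10.2 RPKM and then 12.3 and 10.01 RPKM. The groups of the Slitrk6 peak overlapped, those of the Epha3 peak did not, and neither peak passed the test.

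Chemoreceptor genes, which encode olfactory and vomeronasal receptors in large clusters, were nearest to 26 isolated windows by any start (1.46%, against 0.427% of the others and 0.789% of all bound windows). By protein-coding starts they were nearest to 29 (1.63%, against 0.587% and 1.03%). Of these, 4 were called higher in limma, close to the 15.0% of all bound windows. The strongest, 4.08 kb from Olfr1302, measured 4.15 and 5.61 RPKM without IAA and 9.29 and 10.5 RPKM with it (log2 change 1.02, SE 0.43, adjusted p = 0.0793, limma). The next, 6.97 kb from Olfr1339, measured 3.80 and 5.12 RPKM and then 6.82 and 10.01 RPKM. The third was the Olfr352 peak with the element. All 3 had both IAA values above both uninduced values, and none passed the test. The nearest start is a matter of position, and no expression was measured in these libraries.

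At the edge of the rule, the weakest members had a higher condition value of 0.905 RPKM and the strongest unflagged windows left out by it one of 0.890 RPKM. One of those members, in an intron of the glutamate receptor gene Gria1, had 1 and 6 reads without IAA and 2 and 1 with it. A window left out, in an intron of Kcnip1, had 1 and 1 reads and then 5 and 2. The closest pair of members, on chromosome 12 near Sptssa and Eapp, lay 100.046 kb apart, with 1.38 and 3.17 RPKM and then 2.76 and 2.63 RPKM at the first and 2.08 and 2.93 RPKM and then 3.34 and 3.16 RPKM at the second. Just outside the distance limit were windows near Dcdc2a and Afmid, at 99.945 kb and 99.912 kb.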

How the data were processed

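Libraries were grouped by their labels. The authors mapped reads to mm10 (GRCm38) using Bowtie 2 (2.3.4.3, default parameters, which report one placement per read), removed duplicates and pooled both conditions to call NANOG peaks with MACS2. They deposited RPKM values from DiffBind over summit-centred windows. Condition values in the deposited table equalled the mean of the 2 libraries. The flags came from published OCT4 sites and chromatin marks. Values scaled by library size cannot show a change common to the whole genome. RPKM values were whole multiples of the lowest value (100% within 0.001), from which reads were recovered.

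Single windows were tested with limma 3.58.1 (R 4.3.3, lmFit and eBayes with trend) on log2(RPKM + 0.1), on which changes of low values come out too small, over bound windows with Benjamini-Hochberg adjustment. In simulated data on 16608 windows it recovered 165 of 200 windows changed by a fold of 4 (6 false calls) and 199 of 200 changed by a fold of 8 (13 false calls). The simulated rises had a shared mean for all libraries and a fixed spread, without the offset between uninduced libraries seen here. Recovery of smaller changes, of falls or under such offsets was not simulated. Medians are descriptions, and the SD between replicates of a median difference comes from the 2 pairs of replicates. Annotation was GENCODE mouse release 21, and sequence and soft-masking came from the RefSeq GRCm38 reference. Coordinates are 1-based. Analyses used Python 3.11.15.

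Named peaks were the 6 with the highest mean RPKM, the 4 largest rises and 4 largest falls among members at 0.9 RPKM or more in both conditions whose groups did not overlap, the 4 farthest from a bound window, the 2 on either side of each limit, and the 3 strongest per gene list, with protein-coding starts as a second reading. One peak that this rule named is not reported here. Members, gene lists and words were chosen with earlier results of these data known.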

Additional observations from a re-analysis of the deposited data

How the results depend on the processing

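The number of isolated windows called higher (278) was 232 to 286 with either other pseudocount, the fit over all windows, the replicate block (283) or voom, 274 without the recurrent element (an alternative added after seeing the data), and 225 to 278 with sub-threshold neighbours counted or stricter signal limits. It was 21 with eBayes without a trend, 58 at an adjusted p under 0.01, 592 of 3528 members at 50 kb and 100 of 660 at 200 kb, these with more or fewer members by construction. Quantile normalization gave 0 (limma; 122 higher and 70 lower at an unadjusted p under 0.05). No share over all bound windows is given for these alternatives, and nothing is read from their counts. Leaving out one library gave 0 to 739. The single lower call became 0 in the fit over all windows, without a trend, after quantile normalization, with the replicate block and at 0.01, 2 with a pseudocount of 0.5, voom or 50 kb, and 0 to 3 without one library. In limma 3 to 70 windows were lower at an unadjusted p under 0.05 in those full-library fits.

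The median change of 0.81 became 0.12 after quantile normalization, 0.62 to 1.07 without one library and 0.85 with the replicate block. Its difference from other unflagged windows (-0.020) was 0.0037 at 2 RPKM or more and -0.043 to -0.012 without one library. The level difference (-0.12) was -0.20 at 200 kb and -0.048 at 2 RPKM or more. The GC difference (-0.85 percentage points) was -0.57 at 50 kb, -1.42 at 200 kb, -1.14 under both stricter signal limits and -0.99 at the centre of the window. The distance to a transcript start (12875 bp) was 10868 bp at 50 kb, 16226 bp at 200 kb, 12162 bp and 12346 bp under the stricter limits and 32332 bp to protein-coding starts. For the rest the cause of these shifts was not tested. Replicate deviations of the 2 conditions correlated at 0.0055 over bound windows, so the replicate numbers were not taken as pairs, and under the block 247 of the 278 higher calls remained, 31 ended and 36 were added, while the lower call ended. Voom kept 244 of the 278, and its 2 lower calls were other windows. With a median of 5 reads per isolated window in the first uninduced library, a difference of 1 read is within its resolution.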
